A study of Mus musculus with 6 samples.

Results

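Endothelial genes are those that define the cells lining blood vessels. Described here are 10 of the 56748 genes of the deposited table, picked by symbol as *Pecam1*, *Cdh5*, *Kdr*, *Tek*, *Tie1*, *Vwf*, *Emcn*, *Flt1*, *Eng* and *Esam*. They were chosen in part because most such markers were lower, and *Kdr* higher, in the same comparison of genotypes that is described here. Their differences between the genotypes are therefore given as a description, with no test, and all 10 were found once each in the table.

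The 6 RNA-seq libraries were made from primary cultures described as osteocytes, the cells embedded in bone matrix, and isolated from flushed and digested long bones of mice of 7 weeks and kept in culture for 7 days. In 3 cultures the cells came from WT mice, C57BL/6J in the methods, and in 3 from mice with floxed *Gsdmd* alleles and a Cre recombinase driven by the promoter of *Dmp1*, a gene of late osteoblasts and osteocytes, which the sample records call cKO. All 6 cultures, those of both genotypes, had received lipopolysaccharide (LPS) at 10 ng/mL for 3 h and then aluminum hydroxide at 20 µg/mL for a further 3 h, so each value compares genotypes under stimulation. The records number the cultures 1 to 3 within a genotype and do not say whether each came from its own mouse, so that the spread between libraries may be partly technical.

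Endothelial cells are held together by VE-cadherin (*Cdh5*), PECAM-1 and ESAM at their junctions, sense VEGF through the receptor tyrosine kinases VEGFR2 (*Kdr*) and VEGFR1 (*Flt1*), and sense angiopoietins through TIE2 (*Tek*) with its partner TIE1. VEGFR2 carries most of the growth signal of VEGF-A, whereas VEGFR1 binds VEGF-A tightly with a weaker kinase response and acts in part as a decoy. In bone, endothelium rich in endomucin (*Emcn*) and PECAM-1 lines the capillaries near the growth plate and has been tied to bone formation. Several of these genes are not private to endothelium: endoglin (*Eng*) is also made by stromal cells and macrophages, *Vwf* by megakaryocytes, *Pecam1* and *Flt1* by myeloid cells, and *Tek* by blood stem cells.

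Several facts about the libraries touch each value below. The counts on genes summed to between 39566835 and 49734046 per library. *Gsdmd*, the targeted gene, was counted 609, 699 and 549 times in WT and more often, 885, 937 and 1045 times, in the libraries labelled cKO. The deletion is thus not seen in these counts, which do not separate the floxed exons, so each direction below rests on the label. *Xist* was counted 4, 0 and 2 times in WT against 48762, 44817 and 51216 times in the libraries labelled cKO, where *Ddx3y* of the Y chromosome was at 0. The sex of the mice and the genotype cannot be told apart. Defining osteocyte genes were at or near 0, with *Sost* at 0 counts in every library, *Dmp1* at 0 to 6 and *Mepe* at 0 to 2. Macrophage markers moved with the genotype: all 14 tested of 16 were called higher, and their summed level went from between 1208 and 1361 CPM in WT to between 6473 and 6791 CPM in the libraries labelled cKO.

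CPM are counts scaled to the size of the library after TMM, edgeR's correction for composition, and RPKM are CPM per kilobase of the deposited gene length. Log2 fold changes with their standard errors (SE) are those of the libraries labelled cKO over WT from edgeR's quasi-likelihood fit over the 17146 genes with enough counts. The word called is kept for genes that passed both limits, an adjusted p-value under 0.05 and a difference of 1 or more on the log2 scale. Over all tested genes, 6.56% were called higher and 4.64% lower (11.2% in either direction), and the libraries of both genotypes did not overlap for 25.3% of genes on the higher and 23.9% on the lower side (49.2% in all). The median log2 fold change over all tested genes was 0.0077.

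Endothelial transcripts were scarce in these cultures apart from *Eng*. Per length, *Eng* stood at 37.4 ± 2.11 RPKM (SD, n = 3) in WT and 21.5 ± 0.72 RPKM (SD, n = 3) in the libraries labelled cKO, above 93.7% and 87.9% of the tested genes. No other of the 10 genes reached 1 RPKM in either genotype. In WT the mean levels ran from *Cdh5* at 0.402 ± 0.155 RPKM through *Esam* (0.344 ± 0.169), *Vwf* (0.278 ± 0.0486), *Tek* (0.23 ± 0.0336), *Pecam1* (0.228 ± 0.0501) and *Emcn* (0.205 ± 0.034) to *Kdr* (0.15 ± 0.0505), *Flt1* (0.0954 ± 0.0107) and *Tie1* (0.0512 ± 0.0431; SD, n = 3 each). From *Cdh5* to *Emcn* each gene differed from its neighbour in this order by less than the larger of their SDs. In the libraries labelled cKO the order was another one, with *Vwf* at 0.881 ± 0.0622 and *Kdr* at 0.614 ± 0.0405 RPKM placed directly after *Eng*, then *Esam* at 0.281 ± 0.0264 and *Pecam1* at 0.11 ± 0.0474 RPKM (SD, n = 3 each). Below them *Cdh5* (0.0469 ± 0.0328) and *Flt1* (0.0435 ± 0.0172 RPKM) differed by less than their SDs, and *Tek*, *Emcn* and *Tie1* were at 0.0111, 0.00271 and 0 RPKM. Since the RNA is from bulk cultures, fewer endothelial cells and less RNA per cell cannot be told apart.

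In the libraries labelled cKO, 7 of the 10 genes were lower than in every WT library, namely *Pecam1*, *Cdh5*, *Tek*, *Tie1*, *Emcn*, *Flt1* and *Eng*, 2 were higher than in every WT library, namely *Kdr* and *Vwf*, and *Esam* overlapped. Next to the shares over all genes given above, nothing is read from these counts, because the same comparison had a part in choosing the genes. *Tie1* had too few counts to be tested, and *Cdh5*, *Tek* and *Emcn* passed the filter through their WT libraries alone, so these had to come out lower. The median log2 fold change over the 9 was -1.04. Over all 10 it was -1.08, with *Tie1* set to -1.83 by a floor of 3 counts in each library labelled cKO.

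**Figure D1:**
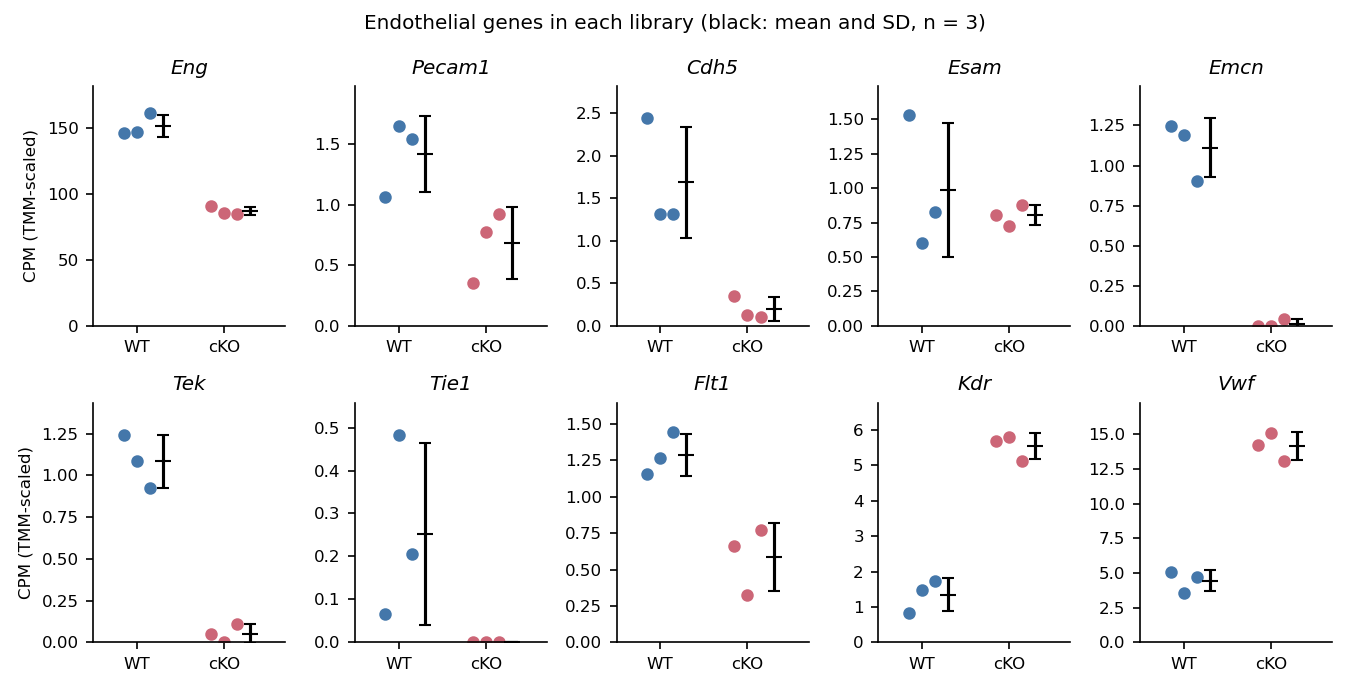
Level of each of the 10 endothelial genes in every library, in TMM-scaled CPM on a linear axis that starts at 0 and differs between panels. Dots are libraries (blue WT, red labelled cKO) and black marks give the mean with its SD (n = 3, cut at 0). *Kdr* and *Vwf* are higher in all 3 libraries labelled cKO, *Esam* overlaps, and the other 7 are lower.

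The adhesion molecules of the junction differed in how far apart the genotypes lay. *Cdh5*, whose cadherin joins neighbouring endothelial cells (mm39 chromosome 8, 104828257 to 104871143), had counts of 110, 65 and 51 in WT and 15, 5 and 5 in the libraries labelled cKO. Every cKO library was below every WT library, at 0.197 ± 0.138 against 1.69 ± 0.653 CPM (SD, n = 3 each), a log2 fold change of -3.08 (SE 0.49). The model of *Gm29682* on the opposite strand overlaps *Cdh5*, but it had 0 counts in every library.

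*Pecam1* (chromosome 11, 106545043 to 106641454), an adhesion molecule of endothelium, platelets and leukocytes, was counted 48, 82 and 60 times in WT and 15, 31 and 42 times in the libraries labelled cKO. The groups did not overlap in CPM, with means of 1.42 ± 0.312 and 0.686 ± 0.295 (SD, n = 3 each), but the highest cKO library (0.924 CPM) lay close to the lowest WT library (1.07 CPM). The log2 fold change was -1.04 (SE 0.38). The nearest tested coding gene, *Milr1*, which encodes an immunoglobulin-like receptor of mast cells and lies 598 bases away on the other strand, had a log2 fold change of 3.10 (adjusted p = 7.24e-11, edgeR), with counts from 49 to 62 in WT but from 450 to 497 in the libraries labelled cKO. The adjacent pair thus stood on opposite sides of WT.

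*Esam* (chromosome 9, 37439374 to 37449615), an immunoglobulin-like protein of tight junctions and of platelets, was counted 69, 30 and 32 times in WT and 34, 29 and 40 times in the libraries labelled cKO. Its levels, 0.987 ± 0.485 and 0.805 ± 0.0756 CPM (SD, n = 3 each), differed by less than the spread in WT, where replicate 1 stood above the other libraries. Its log2 fold change of -0.29 (SE 0.40) turned to 0.17 without WT replicate 1. *Emcn* (chromosome 3, 137046828 to 137137946), a mucin-like protein of capillaries and veins, was counted 56, 59 and 35 times in WT and 0, 0 and 2 times in the libraries labelled cKO. Summed over libraries this is 150 against 2 counts, a ratio of 71.5 that rests on those 2 counts. *Emcn* passed the filter through WT alone, so the ratio only describes these counts.

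Among the angiopoietin receptors, *Tek* (chromosome 4, 94627526 to 94763213) was counted 56, 54 and 36 times in WT and 2, 0 and 5 times in the libraries labelled cKO. WT lay between 0.927 and 1.24 CPM and the libraries labelled cKO between 0 and 0.11 CPM. Summed counts were 146 against 7, a ratio of 19.9, and *Tek* too had passed the filter through WT alone. *Tie1* (chromosome 4, 118328388 to 118347258), the gene of the partner receptor of TIE2, was counted 3, 24 and 8 times in WT and 0 times in each library labelled cKO. With a floor of 3 counts per library there, the WT mean was 3.55 times the floor. With a floor of 6 counts, for read pairs counted as 2, it was 1.78 times. The WT mean was carried by WT replicate 2 (0.483 CPM), while WT replicate 1 had only the 3 counts of the lower floor. Neither value is therefore a lower bound. Both receptors of this family were therefore near the limit of detection in the libraries labelled cKO.

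*Eng*, the only abundant member, encodes endoglin, an auxiliary receptor for BMP9 and BMP10 (chromosome 2, 32536607 to 32572681). Its counts were 6578, 7312 and 6270 in WT and 3813, 3420 and 3871 in the libraries labelled cKO. The levels were 151.6 ± 8.56 and 87.2 ± 2.91 CPM (SD, n = 3 each), and the log2 fold change of -0.80 (SE 0.05) had the smallest SE of the 9 fitted. The groups did not overlap. *Fpgs* overlaps *Eng* on the opposite strand, and the strand setting of the counting is not stated, but *Fpgs* stood at only 14.3 and 11.8 CPM.

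The VEGF receptors went apart. *Flt1* (chromosome 5, 147498414 to 147662821) was counted 52, 63 and 56 times in WT and 28, 13 and 35 times in the libraries labelled cKO, at 1.29 ± 0.145 and 0.587 ± 0.232 CPM (SD, n = 3 each), with a log2 fold change of -1.12 (SE 0.39). *Kdr* (chromosome 5, 76093487 to 76139118) was counted 38, 74 and 67 times in WT and 240, 231 and 233 times in the libraries labelled cKO. Its levels of 1.35 ± 0.456 and 5.54 ± 0.366 CPM (SD, n = 3 each) did not overlap, and the log2 fold change was 2.04 (SE 0.23). Within a library, *Kdr* per length was between 1.09 and 1.79 times *Flt1* in WT but between 9.96 and 26.6 times in the libraries labelled cKO. Against *Cdh5* the same ratio was between 0.161 and 0.611 in WT but between 7.45 and 21.7 in the libraries labelled cKO, so *Kdr* changed from the rarer to the more abundant of that pair.

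*Vwf* (chromosome 6, 125523737 to 125663642), the clotting glycoprotein stored in the Weibel-Palade bodies of endothelium and in platelets, was the other member on the higher side. It was counted 229, 178 and 183 times in WT and 600, 601 and 596 times in the libraries labelled cKO, at 4.46 ± 0.781 and 14.2 ± 1 CPM (SD, n = 3 each), with a log2 fold change of 1.67 (SE 0.14). In CPM, the 3 libraries labelled cKO lay between 13.1 and 15.1 and WT between 3.58 and 5.08. *Pf4*, a platelet chemokine gene that macrophages can also express, rose from 15.3 to 163.5 CPM (a log2 difference of 3.42, adjusted p = 1.51e-16, edgeR), but of the 10 megakaryocyte and platelet markers 5 were at 0 in every library, including *Gp9* and *Gp1bb*. *Itga2b*, the other defining marker, was at 2.34 and 3.16 CPM and was not called (adjusted p = 0.119, edgeR). Of the 4 tested platelet markers 2 were called higher, *Pf4* and *Treml1*, and 0 lower, next to 6.56% and 4.64% over all tested genes. *Treml1* was counted 10, 14 and 6 times in WT and 52, 29 and 48 times in the libraries labelled cKO. It passed the filter through the latter alone, which fixed its direction. *Ppbp*, a platelet chemokine gene too, was lower at 20.8 and 14.1 CPM (-0.56, adjusted p = 5.01e-05, edgeR), short of the limit on the fold. The summed level of the list, 36.6 to 40.6 CPM in WT and 174.3 to 196.9 CPM in the libraries labelled cKO, was carried by *Pf4*. Without *Pf4*, left out after its values were seen, the sum was 21.6 to 24.7 CPM in WT and lower, at 17.8 to 18.7 CPM, in the libraries labelled cKO. The part of platelet or macrophage RNA in *Vwf* was not tested.

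The promoters of the VEGF receptors and of the pair most depleted are shown because these genes stood on opposite sides of WT. RefSeq's promoter table on GRCm38.p6 held 6 of the 10 genes, namely *Kdr*, *Tek*, *Tie1*, *Emcn*, *Flt1* and *Eng*. The 250 bases before the start are printed 5′ to 3′ on the gene's strand, and capitals mark matches, on either strand, to the core AGGAAG bound by ETS factors, the core AGATAA bound by factors of the GATA family, the core AACAAT bound by SOX factors, or the core ACGTG of the hypoxia response. No match overlapped another in these windows.
Kdr (chr5:75978456-75978705, minus strand): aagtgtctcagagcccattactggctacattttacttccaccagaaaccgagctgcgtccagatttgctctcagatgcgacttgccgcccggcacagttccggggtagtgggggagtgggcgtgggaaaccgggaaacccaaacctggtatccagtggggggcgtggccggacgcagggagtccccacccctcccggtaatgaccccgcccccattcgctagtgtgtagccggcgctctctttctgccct
Flt1 (chr5:147726012-147726261, minus strand): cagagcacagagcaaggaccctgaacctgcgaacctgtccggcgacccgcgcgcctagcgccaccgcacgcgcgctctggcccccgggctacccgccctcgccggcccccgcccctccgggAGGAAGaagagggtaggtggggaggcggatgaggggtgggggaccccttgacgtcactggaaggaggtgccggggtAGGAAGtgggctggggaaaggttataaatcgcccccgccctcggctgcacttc
Emcn (chr3:137340828-137341077, plus strand): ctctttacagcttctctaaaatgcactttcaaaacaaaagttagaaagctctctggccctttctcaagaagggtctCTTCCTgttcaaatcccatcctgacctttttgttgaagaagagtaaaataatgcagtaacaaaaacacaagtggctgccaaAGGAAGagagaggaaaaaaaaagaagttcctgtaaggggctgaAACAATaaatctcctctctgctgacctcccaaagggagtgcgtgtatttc
Tek (chr4:94739039-94739288, plus strand): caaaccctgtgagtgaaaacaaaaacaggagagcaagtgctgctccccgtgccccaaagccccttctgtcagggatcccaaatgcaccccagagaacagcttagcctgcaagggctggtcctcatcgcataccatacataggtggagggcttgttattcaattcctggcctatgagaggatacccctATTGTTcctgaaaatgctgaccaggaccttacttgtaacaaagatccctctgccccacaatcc

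The AGGAAG core was in the windows of 4 of the 6 genes, with 2 matches each in *Flt1*, *Emcn* and *Eng* and 1 in *Tie1*, and in 29.5% of the 32851 promoters of the table. The SOX core was in *Emcn* and *Tek* and in 9.42% of all promoters. The strings AGATAA and ACGTG were in 0 of the 6 windows, against 9.99% and 16.6% of all promoters. The *Kdr* window held none of the 4 strings, which says only that these letters are not in this window. Variants of the cores were not looked for.

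The genes around *Kdr* were set beside it to see how local its difference was. Of the 29 other tested genes whose start lies within 2000 kb of the *Kdr* start, 1 was called higher and 1 lower. The higher one was *Lnx1*, an E3 ubiquitin ligase gene, with a log2 fold change of 1.35 (adjusted p = 3.52e-07, edgeR), and the lower one the pseudogene *Ube2n-ps1* (-1.13, adjusted p = 0.00632). Of the nearest tested coding genes, neither of which was called, *Srd5a3* was at 22.7 ± 0.986 and 24.1 ± 1.43 CPM (log2 fold change 0.083, adjusted p = 0.43), and *Pdgfra*, a receptor of stromal progenitors, was higher without overlap but short of the limit on the fold, at 498.5 ± 10.6 and 679.1 ± 11.1 CPM (0.45, adjusted p = 1.19e-08, SD, n = 3 each). Over all 10 members, 1 of the 20 nearest tested coding neighbours was called higher, *Milr1*, and 1 lower, *Bean1* beside *Cdh5* (-1.80, adjusted p = 0.00046, edgeR).

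**Figure D2:**
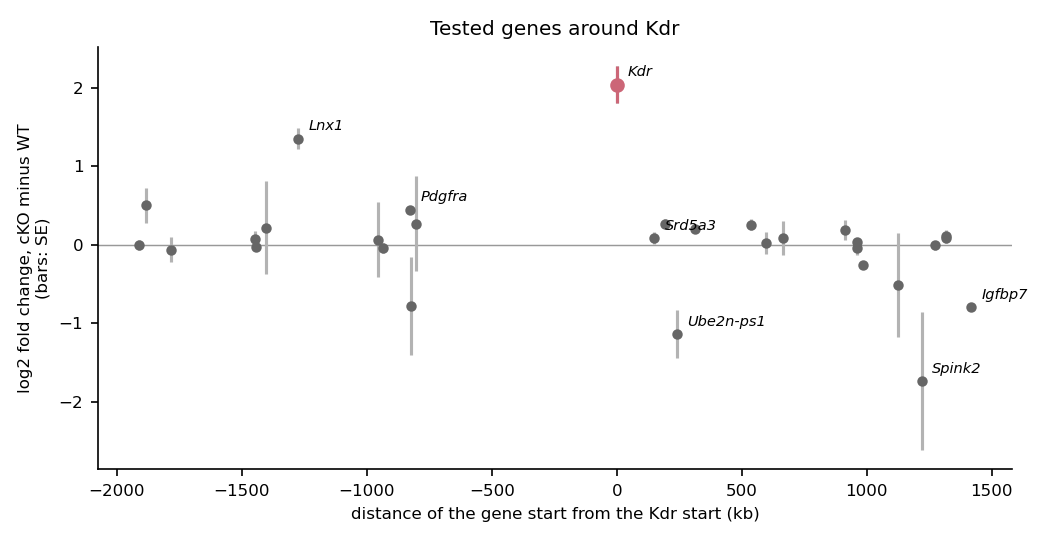
Log2 fold change of the libraries labelled cKO over WT for *Kdr* (red) and the 29 other tested genes (grey) whose start lies within 2000 kb, against the distance of their start from that of *Kdr* in kb. Points are edgeR's fitted values and bars their SE. *Kdr*, at 2.04, stands above every other gene of the window, of which *Lnx1* at 1.35 is next.

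Other genes followed the profile of *Kdr* over the 6 libraries. The 5 with the highest Pearson r on log2(CPM + 0.5) were *Tspan14*, *H2-K1*, *Il2rg*, *C4b* and *Il33*, with r from 0.998 to 0.999, and 87 genes had r above 0.99. These values describe 6 points that fall into 2 genotypes and share their depth.

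To see how the pathways of these receptors stood, 101 further genes were grouped by role, without the 10 members. Of them 82 were tested, of which 9 were called higher and 12 lower, next to the 6.56% and 4.64% over all tested genes. Their median log2 fold change was -0.13. Of the 82, 8 passed the filter through 1 genotype alone, which fixes a direction (*Ptprb*, *Edn1*, *Nos3* and *Podxl* through WT, *Tal1*, *Ramp2*, *Stab2* and *Rasip1* through the libraries labelled cKO), and among the other tested genes 8 were called higher and 9 lower. At an adjusted p-value below 0.05 with no limit on the fold, 25 were higher and 35 lower, where 20.1% and 19.2% of all tested genes were (39.3% in either direction).

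**Figure D3:**
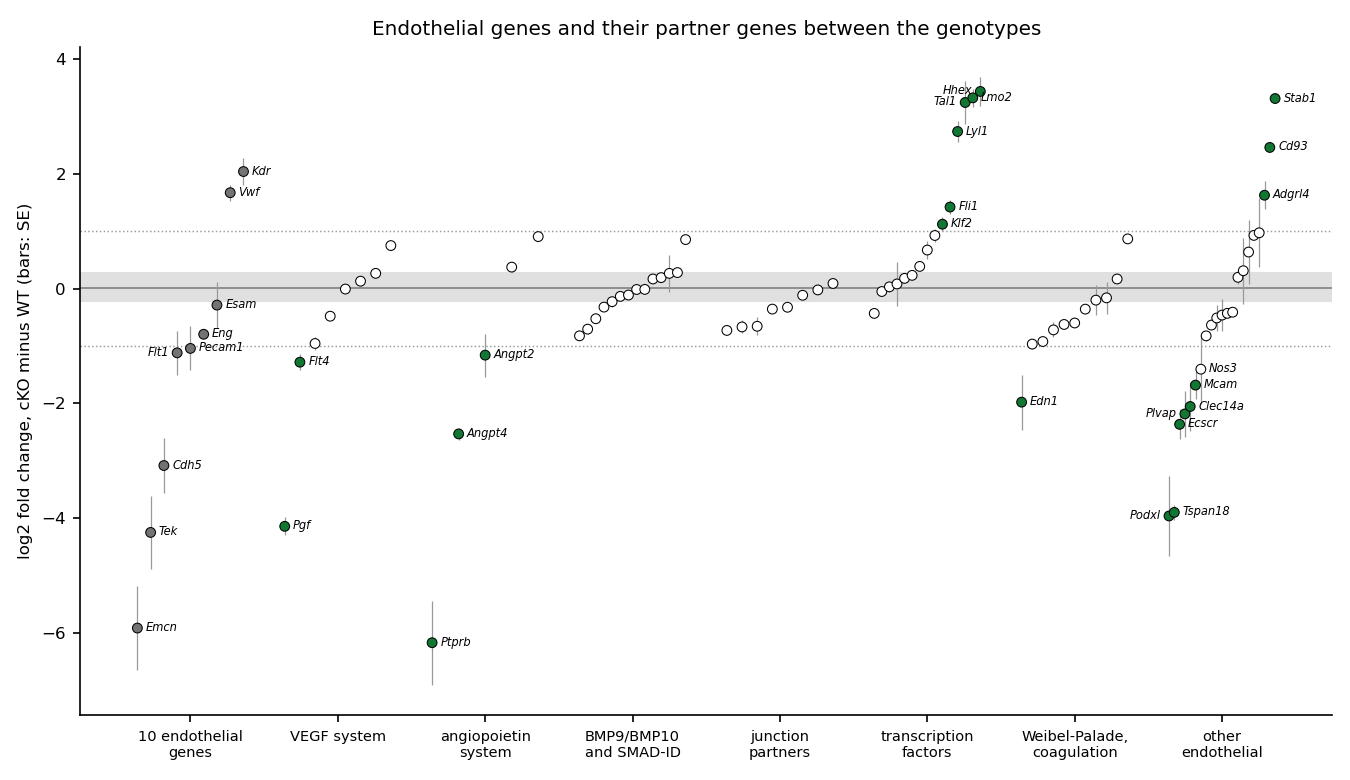
Log2 fold change (cKO over WT) of the 9 tested endothelial genes (dark grey, no test) and of the 82 tested partner genes in 7 groups, with SE bars. Green points were called, white points were not, dotted lines mark a log2 fold change of 1 and -1, and the grey band and line give the quartiles and median of all tested genes. The called transcription factors all lie above the band, the called VEGF and angiopoietin genes all below it, and other endothelial markers on both sides.

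Among the ligands and co-receptors of the VEGF receptors, 2 of 8 tested genes were called lower and 0 higher, the median being -0.25. *Pgf*, placental growth factor, which binds VEGFR1 but not VEGFR2, fell furthest: it was counted 915, 1305 and 950 times in WT and 47, 46 and 78 times in the libraries labelled cKO, a log2 fold change of -4.14 (SE 0.16, adjusted p = 4.8e-13, edgeR). *Flt4*, the receptor for VEGF-C and VEGF-D, fell from 9.22 to 3.78 CPM (-1.28, adjusted p = 8.27e-07). *Vegfa*, the main ligand of both VEGFR1 and VEGFR2, was by far the most abundant gene of the group per length, at 146.2 and 104.7 RPKM, and was lower with a log2 fold change of -0.48 (SE 0.04, adjusted p = 1.1e-08), short of the limit on the fold. *Nrp2*, a co-receptor, was higher at 0.75 (SE 0.04, adjusted p = 5.4e-11), also short of it, whereas *Nrp1* (-0.0094, adjusted p = 0.919) did not pass.

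In the angiopoietin group 3 of 5 genes were called lower and 0 higher, and the median was -1.16. *Ptprb*, the phosphatase VE-PTP that restrains TIE2, was counted 78, 56 and 45 times in WT and 0, 2 and 0 times in the libraries labelled cKO. It passed the filter on low counts through WT alone, so its direction was fixed and no p is given. *Angpt4*, a TIE2 ligand, fell from 19.9 to 3.45 CPM, a log2 fold change of -2.53 (SE 0.11, adjusted p = 2e-12). *Angpt2*, the ligand that can oppose ANGPT1, had a log2 fold change of -1.16 (SE 0.37, adjusted p = 0.0201), a call that was lost without WT replicate 1, without cKO replicate 1 or without cKO replicate 2. *Svep1*, a large matrix protein that binds TIE1, was the most abundant of the group, at 26.7 and 50 RPKM, with a log2 fold change of 0.90 (adjusted p = 1.12e-12), and *Angpt1* was at 17.6 and 22.8 CPM (0.37, adjusted p = 0.00148), both short of the limit on the fold.

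In the endoglin pathway no gene was called in either direction among 14 tested, and the median was -0.065. At an adjusted p-value below 0.05 alone, 4 were higher and 5 lower. *Gdf2* (BMP9) and *Bmp10*, the ligands, were at 0 counts in every library. *Acvrl1*, the type I receptor ALK1 that works with endoglin, was at 47 and 26.6 CPM with a log2 fold change of -0.82 (SE 0.07, adjusted p = 1.38e-08, edgeR), close to the -0.80 of *Eng*. The target genes *Id1* (-0.017, adjusted p = 0.896) and *Id3* (0.19, adjusted p = 0.0031) lay nearer to 0, and *Id3* and *Tgfbr3* were the most abundant of the group, at 118.2 and 42.5 RPKM in WT.

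Of the 12 junction partners 8 were tested, 0 were called in either direction, and the median was -0.34. At an adjusted p-value below 0.05 alone, 0 were higher and 5 lower, among them *Jam2* (-0.73, adjusted p = 3.77e-09, edgeR) and *Tjp1*, the scaffold ZO-1 (-0.33, adjusted p = 4.14e-06). *Cldn5*, the main claudin of endothelial tight junctions, was at 0 counts in every library, and *Icam2* was counted at most 4 times in WT but 5 to 12 times in the libraries labelled cKO. *Ctnnb1*, which links cadherins to the cytoskeleton in most cell types, did not pass (0.087, adjusted p = 0.0607).

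Transcription factors of endothelial cells were the group on the higher side, with 6 of 15 tested genes called higher and 0 lower and a median of 0.67. *Lmo2* rose from 1.75 to 17.6 CPM (a log2 difference of 3.32, SE 0.15, adjusted p = 6.33e-12, edgeR), *Hhex* from 0.505 to 5.46 CPM (3.43, adjusted p = 2.96e-09) and *Lyl1* from 1.31 to 8.73 CPM (2.73, adjusted p = 1.45e-09). *Tal1*, *Fli1* and *Klf2* were also called, *Tal1* having passed the filter through the libraries labelled cKO alone, which fixed its direction. Blood cells use *Lmo2*, *Lyl1*, *Tal1* and *Fli1* too, and the macrophage markers given above moved in the same direction. Their part in these values was not tested. *Etv2* and the SOX factors of the group were low: *Etv2* was at 0 counts in every library, *Sox17* at 0 to 3, and *Sox18* at between 7 and 18 counts in WT but between 2 and 4 in the libraries labelled cKO. *Sox7* was counted 27, 46 and 30 times in WT and 32, 36 and 35 times in the libraries labelled cKO. Its log2 fold change was 0.080 (adjusted p = 0.896, edgeR). *Erg* was at 3.38 and 5.37 CPM, a log2 fold change of 0.67 (SE 0.16, adjusted p = 0.00308), short of the limit. The most abundant per length, *Klf4* and *Foxc1*, had log2 fold changes of -0.052 (adjusted p = 0.457) and 0.23 (adjusted p = 0.00106).

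Among Weibel-Palade body and coagulation genes, the storage setting of VWF, 1 of 11 tested genes was called lower and 0 higher, the median being -0.60, so *Vwf* was not joined by a called gene of this group. The lower one was *Edn1*, endothelin-1, counted 45, 44 and 25 times in WT and 12, 7 and 8 times in the libraries labelled cKO. It passed the filter through WT alone, which fixed its direction. *Selp*, the P-selectin stored beside VWF, was at 12.5 and 7.58 CPM (-0.72, adjusted p = 0.000237, edgeR). *Sele* was counted 6, 13 and 14 times in WT and 0 times in each library labelled cKO, too few to be tested. *Cd63*, a broadly expressed tetraspanin of the same storage bodies, had a log2 fold change of 0.17 (adjusted p = 0.00183, edgeR). *Stxbp5* of this group rose without overlap from 45 to 82 CPM (0.86, adjusted p = 1.59e-10), short of the limit on the fold. At an adjusted p-value below 0.05 alone, 2 of the 11 were higher and 7 lower.

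Other endothelial markers split. Of 29 genes 21 were tested, 3 were called higher and 6 lower, and the median was -0.46. *Tspan18*, a tetraspanin, fell from 21.2 to 1.42 CPM (-3.90, SE 0.14, adjusted p = 1.58e-13, edgeR), *Ecscr* from 3.99 to 0.772 CPM (-2.37, adjusted p = 8.46e-07) and *Mcam* from 3.89 to 1.21 CPM (-1.68, adjusted p = 2.34e-05). *Plvap*, *Clec14a* and *Podxl* were the other lower genes, of which *Podxl* passed the filter through WT alone, so that its direction was fixed. On the higher side were *Stab1*, a scavenger receptor, from 15 to 148.4 CPM (3.31, SE 0.06, adjusted p = 1.3e-16), *Cd93* from 34.6 to 190.2 CPM (2.46, adjusted p = 3.89e-16) and *Adgrl4* from 1.06 to 3.26 CPM (1.62, adjusted p = 3.54e-05). *Stab1* and *Cd93* are also made by macrophages. *S1pr1*, a receptor for sphingosine 1-phosphate and with *Cd93* the most abundant of the group per length over all libraries, though not in WT, was at 0.93 (adjusted p = 1.92e-09), short of the limit.

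Markers of other cell types were read alongside the 10 genes. Of the mural cells that wrap vessels, 9 of 10 markers were tested, with 0 called higher and 6 lower and a median of -1.18. Over all tested genes 6.56% were called higher and 4.64% lower. *Abcc9*, one of the lower genes, was counted 127, 97 and 75 times in WT and 8, 12 and 26 times in the libraries labelled cKO. It passed the filter through WT alone, so its direction was fixed. Their sum, 1281 to 1465 CPM in WT and 862 to 933 CPM in the libraries labelled cKO, was carried mostly by *Acta2* (760.2 and 375.9 CPM) and *Pdgfrb*. *Rgs5*, a pericyte marker, fell from 3.3 to 1.05 CPM (-1.65, adjusted p = 3.22e-05, edgeR), whereas *Pdgfrb*, which stromal cells also express, did not pass (367.0 and 352.7 CPM, adjusted p = 0.275). *Cspg4* of the same list was higher without overlap, at 118.9 and 138.9 CPM (0.22, adjusted p = 0.00276, edgeR), short of the limit on the fold. At an adjusted p-value below 0.05 alone, 1 mural marker was higher and 6 were lower. The macrophage markers *Adgre1* and *Csf1r* rose from 36.4 to 238 CPM and from 26.1 to 234.8 CPM, by log2 fold changes of 2.71 (adjusted p = 1.9e-16) and 3.17 (adjusted p = 3.63e-17). Summed, the 7 endothelial genes other than *Eng*, *Vwf* and *Kdr*, a split made after their values were seen, gave 7.16 to 8.75 CPM in WT and 1.96 to 2.84 CPM in the libraries labelled cKO. With *Vwf* and *Kdr* kept and *Eng* left out, the sum went the other way. It was then 12.7 to 14.7 CPM in WT and 21.1 to 22.9 CPM in the libraries labelled cKO. Over all 10 genes, where *Eng* carried the sum, it was 159.9 to 175.0 and 106.2 to 112.7 CPM. The osteocyte and osteoblast list, carried by *Col1a1*, summed to 5808 to 6439 CPM in WT and 3803 to 4077 CPM in the libraries labelled cKO, and of its 6 tested genes 1, *Ibsp*, was called higher and 0 lower. How far any of these cell types had a part in the endothelial values was not tested.

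**Figure D4:**
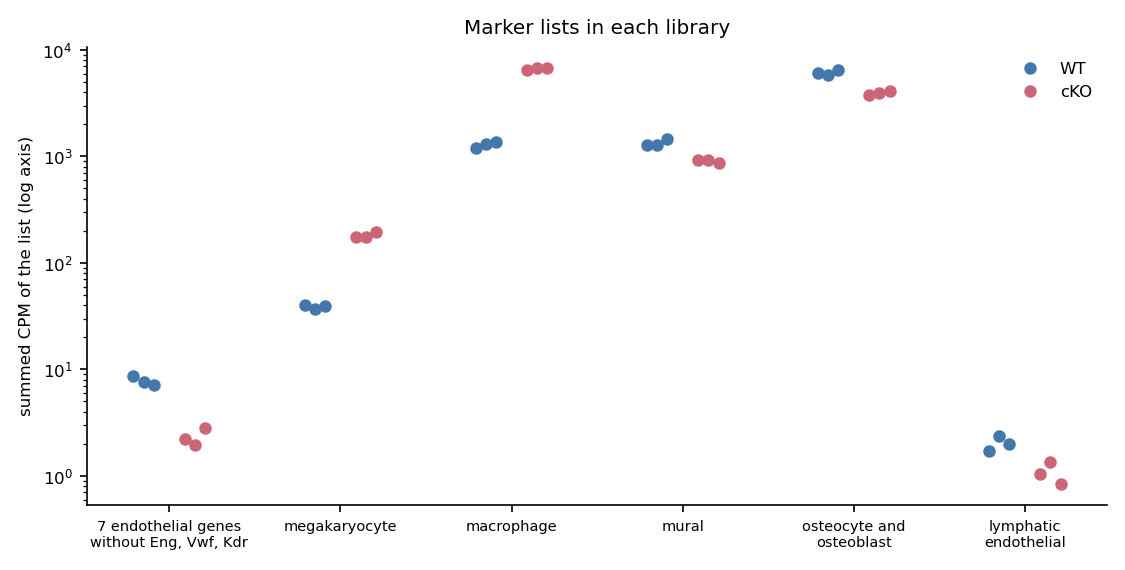
Summed TMM-scaled CPM of each marker list in every library, on a log axis, with WT in blue and the libraries labelled cKO in red (3 dots each). Macrophage and megakaryocyte lists are higher in every library labelled cKO, the latter through *Pf4* (without it 17.8 to 18.7 against 21.6 to 24.7 CPM in WT), and the other 4 lists lower, with the 7 endothelial genes at 1.96 to 2.84 against 7.16 to 8.75 CPM. These 7 were split off after their values were seen. With *Vwf* and *Kdr* kept, the sum is higher in the libraries labelled cKO, at 21.1 to 22.9 against 12.7 to 14.7 CPM in WT.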

How the data were processed

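RNA from 6 stimulated cultures was sequenced as 150 bp paired-end reads. The authors trimmed the reads, aligned them to mm39 (GRCm39) with HISAT2 2.0.5 and counted them on genes with featureCounts (1.55.0-p3 in the submitters' processing notes, another release in the methods, which also name RSEM). They deposited raw counts per gene, not normalized, with symbols, coordinates and gene lengths (bases, deposited as another column). Replicates were not pooled, and every count column matched a library. From these counts, edgeR 4.0.16 in R 4.3.3 was run with filterByExpr, TMM, glmQLFit and glmQLFTest on genotype, with Benjamini-Hochberg adjustment over 17146 genes. The procedure was tested on simulated data. Alternatives were DESeq2 1.42.0, limma-voom (limma 3.58.1), other scalings, filters and limits, replicate blocks, halved counts and each library left out.

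The members and lists were chosen with earlier results of these data known, and the members have no p-values here. The genes named were the 10 members, of each partner list up to 3 called genes in each direction with the smallest p-values and the 2 most abundant per length, the nearest tested coding neighbours, the 5 genes most like *Kdr*, *Gsdmd* and defining markers; others named were chosen after their values were seen. Some genes that this rule names are not reported here. Even numbers made up 63.4% to 65.7% of the counts between 1 and 10, so a pair of mates may often add 2. Floors cover counting error only. Replicates of a genotype differed by more than sampling noise (chi-square per gene 4.8 to 13.9). Coordinates of genes are those of the table, and promoters are RefSeq's on GRCm38.p6.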

Additional observations from a re-analysis of the deposited data

How the results depend on the processing

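Across the 8 alternatives that do not leave out a library, *Kdr* stayed between 2.03 and 2.09, *Vwf* between 1.66 and 1.69 and *Eng* between -0.81 and -0.77. The sign of the 9 tested members also held, *Cdh5*, *Tek* and *Emcn* having 7 such values. Nothing is read from these signs, because the members were chosen in part by their direction in the same libraries. *Cdh5*, *Tek* and *Emcn* had also passed the main filter through WT alone. With each library left out in turn, *Kdr* ranged from 1.77 to 2.23, *Pecam1* from -1.32 to -0.73, *Flt1* from -1.36 to -0.84, *Cdh5* from -3.81 to -2.73, *Tek* from -5.32 to -3.73, *Emcn* from -8.59 to -5.41, and *Esam* from -0.56 to 0.17, and the median over the tested members from -1.32 to -0.82. That median was -0.54 when at least 10 counts were required in every library, which left 6 members. The same filter gave 522 genes called lower, against 796, and *Edn1*, *Podxl*, *Ptprb* and *Tal1* were then not tested. Without a limit on the fold, 3445 genes were higher and 3285 lower, and 25 and 35 of the partner genes. Leaving out a library gave 1027 to 1153 genes called higher and 773 to 827 lower, and 9 to 10 and 12 to 15 partner genes. With no filter, 4 more partner genes were called lower, and DESeq2, limma-voom, both other scalings and halved counts kept the same 21. The replicate block also kept these 9 higher and 12 lower partner genes, with 1087 genes higher and 772 lower in all. Deviations of same-numbered libraries correlated at -0.0136 to 0.00115, and not every library correlated best with its own number, so the numbers were not taken as pairs. Precision is limited by counts: all members but *Eng*, *Vwf* and *Kdr* had at most 110 counts in any library.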

Other observations

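Markers of lymphatic endothelium were at the edge of detection. Of 4 genes 2 were tested and 0 were called: *Prox1*, the factor that sets lymphatic identity, was at 1.22 and 0.627 CPM (log2 fold change -0.96, adjusted p = 0.0532, edgeR), and *Lyve1* was at 0.512 and 0.333 CPM (-0.62, adjusted p = 0.367). Their summed level was 1.71 to 2.36 CPM in WT and 0.836 to 1.36 CPM in the libraries labelled cKO. Of the 19 partner genes with too few counts to be tested, 6 were at 0 in every library, namely *Gdf2*, *Bmp10*, *Cldn5*, *Etv2*, *Gpihbp1* and *She*. *Robo4* was counted 6, 19 and 2 times in WT and 0 times in each library labelled cKO, *Mmrn2* 6, 16 and 12 against 0, 1 and 2 times, *Myct1* 23, 15 and 2 against 2, 0 and 0 times, and *Aplnr* 5, 2 and 4 against 0 times each. Not every untested partner gene was lower. *Icam2* was counted 0, 4 and 0 times in WT against 12, 9 and 5 times, and *Dll4* 10, 6 and 4 against 14, 5 and 9 times. *Cgn* was counted 0, 3 and 2 against 11, 4 and 0 times, and *Adamts13* 0, 0 and 0 against 0, 1 and 4 times. These genes are named after their values were seen.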
